A study of Homo sapiens with 2 samples.

Results

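The T cell lineage transcription factors GATA3, TBX21, TCF7, LEF1, BCL11B, RUNX1, RUNX3, TOX, IKZF1 and SATB1 were taken by gene symbol from a table of 19220 genes, and 10 of 10 were found. Polyadenylated RNA was sequenced from H9 cells, an established human T cell line that is a clone of a cutaneous T cell lymphoma line, labelled as wild type. The study compared 1 library of cells given 0.05 µM doxorubicin for 6 h with 1 library of untreated cells, labelled 0 h. Its aim was to find genes and pathways that differ after exposure. The labels give no untreated library at 6 h, so the drug and the time in culture cannot be told apart. Below, higher or lower with doxorubicin means in the treated library. The anthracycline doxorubicin stalls topoisomerase II on cut DNA. The treated library held 50174434 gene-assigned counts and the untreated library 33730703, a depth ratio of 1.49.

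These factors set and keep T cell identity. TCF7 and LEF1 are HMG-box proteins that act early in the thymus and later partner with β-catenin, GATA3 is a zinc-finger factor needed for T cell commitment and for type 2 helper cells, and BCL11B closes off other fates. RUNX1 and RUNX3 are runt-domain factors that need the subunit CBFB and govern the choice between CD4 and CD8. IKZF1 encodes Ikaros, a zinc-finger protein that works with the NuRD complex, TOX is an HMG-box protein of thymic selection and exhausted T cells, SATB1 folds chromatin in thymocytes, and TBX21 encodes T-bet, the factor of type 1 helper cells. In Sezary cells, a leukemic form of cutaneous T cell lymphoma, low SATB1 and high TOX are well-known features.

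With 1 library per condition there is no test and no p-value, and every interval covers counting error only, since the reads carry no molecular identifiers and no second culture was analysed here. Ratios are log2 of treated over untreated, from counts scaled by TMM (a trimmed mean of log ratios) with 0.5 added. A gene counted as measured when both libraries summed to at least 100 counts, which held for 11244 genes and for 8 of the 10 factors, all except SATB1 and TBX21. By a size rule, a measured gene was called higher or lower when it differed at least 1.5-fold and its 95% exact interval excluded a ratio of 1.

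The T cell label was checked against 13 surface and signalling markers, of which 10 were measured. CD3E, a chain of the T cell receptor complex, had 173 CPM (counts scaled to 1e6 per library) in treated cells and 217 in untreated cells, and CD4 had 27.0 and 23.3. CD2, CD7 and CD28 were the exceptions, with at most 13 counts in treated and 8 in untreated cells. CD7 had 8 counts in each library. Of markers of other cells, 0 of 5 for NK cells, 0 of 5 for myeloid cells and 0 of 4 for erythroid cells were measured, and each of these lists summed to at most 0.35 CPM in treated and 0.304 in untreated cells. The 5 B cell markers summed to 150 CPM in treated and 206 in untreated cells. Of this CD79A gave 129 and 182, and CR2 was at 0 in both. The 5 epithelial or fibroblast markers summed to 73.1 and 86.7. Of this EPCAM gave 63.0 and 78.6, and KRT19 was at 0 in both. The 4 pluripotency markers, looked at because an embryonic stem cell line is also called H9, summed to 2.18 and 3.25 CPM. Whether the B cell or epithelial transcripts bear on the values of the lineage factors was not tested.

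Levels of different genes can be set side by side only per length, here as CPM per kilobase of the gene's longest transcript paired with RefSeq. LEF1 was the most abundant factor, at 110 CPM per kilobase in treated cells and 115 in untreated cells, above 94.99% and 94.1% of measured genes. GATA3 followed with 74.4 in treated and 95.3 in untreated cells, and TCF7 with 63.8 and 71.1. RUNX3 stood at 34.4 and 36.4, TOX at 28.3 and 28.5, IKZF1 at 20.3 and 14.2, BCL11B at 9.41 and 7.67, and RUNX1 at 6.24 and 5.15. With this transcript length the order of these 8 was the same in both libraries, and the 95% Poisson intervals of neighbours did not overlap in either. SATB1 and TBX21 lay far below, at 0.0798 and 0.0303 CPM per kilobase in treated cells. In untreated cells SATB1 stood at 0.136 and TBX21 had no count. The order rests on the transcript chosen: with the median length of each gene's annotated transcripts TCF7 passed GATA3, at 248 against 128 CPM per kilobase in treated cells and 277 against 164 in untreated cells. The order then also differed between the libraries, with IKZF1 above RUNX3 in treated cells (71.8 against 56.8) and below it in untreated cells (50.3 against 60.1). RUNX1 and TOX were within counting error of each other in treated cells (28.7 against 28.3), and RUNX1 lay below TOX in untreated cells (23.7 against 28.5).

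**Figure D1:**
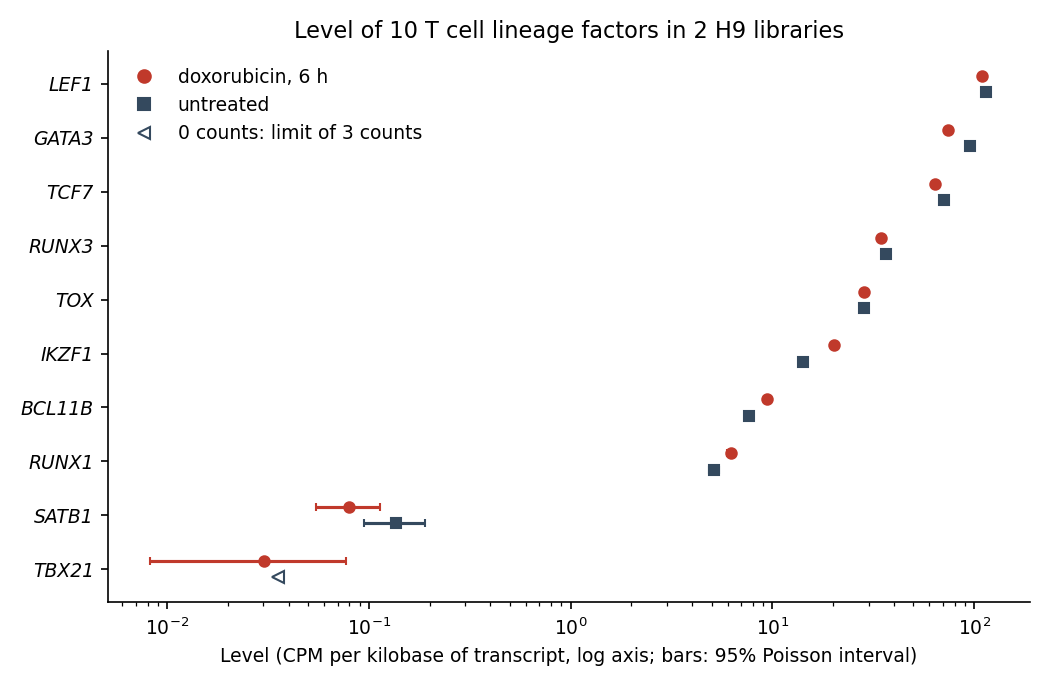
Level of each factor in CPM per kilobase of transcript on a log axis, with circles for the doxorubicin library, squares for the untreated library and bars for the 95% Poisson interval. The open triangle is the limit of 3 counts where TBX21 had 0, and 8 factors lie between 5.15 and 115 while SATB1 and TBX21 lie below 0.2.

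RefSeq promoter windows, from 250 bases before to 50 after each annotated start on GRCh38.p14, were found for 9 of the 10 factors, all except TOX, with 21 windows in all. They were searched on both strands for the RUNX core letters TGTGGT or TGCGGT, because RUNX1 and RUNX3 are themselves among the factors. A match occurred in 9 of the 21 windows, and in 19.6% of 35116 windows over all genes. The windows with a match belonged to GATA3, IKZF1, LEF1, RUNX3, SATB1 and TCF7. Those shown here are of RUNX3, the most abundant RUNX gene, of LEF1, the most abundant factor, and of IKZF1 and GATA3, which had the highest and lowest ratios among the measured factors. They were chosen after the matches were seen, and capitals mark the RUNX letters on either strand (ACCACA is TGTGGT read on the other strand).
RUNX3, chr1:24964961-24965260, minus strand: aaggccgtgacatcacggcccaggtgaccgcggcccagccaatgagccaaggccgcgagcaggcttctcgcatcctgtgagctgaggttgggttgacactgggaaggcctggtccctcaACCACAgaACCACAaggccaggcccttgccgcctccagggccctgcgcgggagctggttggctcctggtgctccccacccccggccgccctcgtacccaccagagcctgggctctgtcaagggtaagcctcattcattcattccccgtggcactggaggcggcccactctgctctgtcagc
LEF1, chr4:108166252-108166551, minus strand: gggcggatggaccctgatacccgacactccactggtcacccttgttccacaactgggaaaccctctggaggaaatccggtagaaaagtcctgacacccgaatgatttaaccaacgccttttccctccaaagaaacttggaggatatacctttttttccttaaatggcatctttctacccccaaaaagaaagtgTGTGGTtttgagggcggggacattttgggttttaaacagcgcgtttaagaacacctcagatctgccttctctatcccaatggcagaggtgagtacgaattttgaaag
IKZF1, chr7:50308450-50308749, plus strand: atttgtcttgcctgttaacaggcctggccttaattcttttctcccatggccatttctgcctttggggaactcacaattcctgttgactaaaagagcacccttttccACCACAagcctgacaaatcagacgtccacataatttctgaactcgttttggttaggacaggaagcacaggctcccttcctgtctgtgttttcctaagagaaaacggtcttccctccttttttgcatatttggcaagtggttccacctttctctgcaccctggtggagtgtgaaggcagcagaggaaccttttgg
GATA3, chr10:8045083-8045382, plus strand: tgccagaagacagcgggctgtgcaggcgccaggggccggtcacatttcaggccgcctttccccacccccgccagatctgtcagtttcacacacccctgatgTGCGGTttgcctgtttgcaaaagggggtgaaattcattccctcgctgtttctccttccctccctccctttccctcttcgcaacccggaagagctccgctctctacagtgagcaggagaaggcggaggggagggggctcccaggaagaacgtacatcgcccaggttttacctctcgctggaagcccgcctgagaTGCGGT

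The RUNX3 window held 2 copies in the same direction, whose first bases were 131 and 123 bases before the start. The LEF1 copy began 57 bases before the start and the IKZF1 copy 144. In the GATA3 window 1 copy began 149 bases before the start and the other lay after it. GATA letters, that is AGATAA or AGATAG, or else TGATAA or TGATAG, were found in 1 of the 21 windows, another start of IKZF1, and in 24.97% of all windows. TCF letters (CTTTGAA or CTTTGAT) were in 0 of 21 and in 6.86% of all windows. A match is a string of letters, and binding was not measured here.

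No measured factor passed the size rule: 0 of 8 were called higher and 0 lower, where 7.26% of all measured genes were called higher and 9.57% lower. With total-count scaling it was again 0 and 0, where 9.64% of all measured genes were called higher and 7.58% lower. Their log2 ratios ran from -0.36 for GATA3 to 0.51 for IKZF1, with a median of -0.04, against a median of 0.007 and quartiles of -0.28 and 0.27 over all measured genes. In bulk RNA, fewer cells with a transcript and less of it per cell cannot be told apart. The counting interval lay above 0 for IKZF1, BCL11B and RUNX1, below 0 for GATA3, TCF7, RUNX3 and LEF1, and held 0 for TOX. The share of all measured genes with an interval that excluded 0 was not computed. These intervals leave out the choice of scaling, and with total counts LEF1 lay at 0.00 and RUNX3 at -0.01. At a looser size limit of 0.32 on the log2 scale, IKZF1 was called higher and GATA3 lower, where 20.4% of all measured genes were called higher and 21.5% lower.

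TCF7 had 9974 counts in treated cells and 7130 in untreated cells, which is 194 against 216 CPM. Its scaled level was 1.11-fold lower with doxorubicin (1.08 to 1.15). LEF1, its close relative, had 19655 counts in treated and 13187 in untreated cells, or 383 against 400 CPM. At a log2 ratio of -0.07 (-0.10 to -0.03) it was the nearer of the pair to no difference, and under total-count scaling it lay at 0.00. Both HMG-box factors were thus a little lower in the treated library under TMM, by less than the size rule.

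GATA3 had 11933 counts in treated and 9804 in untreated cells, or 232 against 298 CPM. Its log2 ratio was -0.36 (-0.40 to -0.32), or 1.28-fold lower with doxorubicin, the lowest ratio of the 8 measured factors, and 20.05% of all measured genes lay at or below it. GATA3 lies on chromosome 10 (GRCh38, chr10:8045378-8075203, plus strand). Its transcript of 3123 bases is near the median of 3267 over measured genes, and adjustment for transcript length left the log2 ratio at -0.37. BCL11B, the commitment factor, went the other way, with 3676 counts in treated and 1921 in untreated cells, or 71.6 against 58.3 CPM. Its log2 ratio was 0.30 (0.22 to 0.38), and -0.11 after adjustment for lengths and GC content.

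RUNX1 had 2330 counts in treated and 1233 in untreated cells, or 45.4 against 37.4 CPM, a log2 ratio of 0.28 (0.18 to 0.38). RUNX3 had 7676 counts in treated and 5207 in untreated cells, or 149 against 158 CPM, a log2 ratio of -0.08 (-0.13 to -0.03) that was -0.01 under total-count scaling. The RUNX paralogs therefore had ratios of opposite sign under TMM, RUNX1 above 0 and RUNX3 below it. After adjustment for transcript length RUNX1 lay at 0.00 and RUNX3 at -0.20. With coding length and GC content also fitted they lay at -0.05 and -0.29. Their obligate partner CBFB was 1.33-fold lower (1.29 to 1.37), at 207 CPM in treated and 276 in untreated cells, and was not called.

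IKZF1 had 6560 counts in treated and 2947 in untreated cells, or 128 against 89.5 CPM. It was 1.43-fold higher with doxorubicin (1.37 to 1.49), just inside the limit of 1.5, and 9.81% of all measured genes had a ratio as high. The gene lies on chromosome 7 (GRCh38, chr7:50304068-50405101, plus strand). TOX had 5998 counts in treated and 3885 in untreated cells, or 117 against 118 CPM. Its log2 ratio was -0.01 (-0.07 to 0.04), and 0.05 under total-count scaling.

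SATB1 had 32 counts in treated and 35 in untreated cells, or 0.623 against 1.06 CPM, too few to count as measured. The log2 ratio of these counts was -0.77 with a wide interval from -1.51 to -0.04, and with a count minimum of 20 it would be called lower. TBX21 had 4 counts in treated cells, 0.0779 CPM with a 95% Poisson interval of 0.0212 to 0.199, and 0 counts in untreated cells, which allows up to 3 counts or 0.0911 CPM. A difference in TBX21 was not detectable at this depth. Both genes were close to absent in both libraries, while GATA3 had 11933 counts in treated and 9804 in untreated cells.

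**Figure D2:**
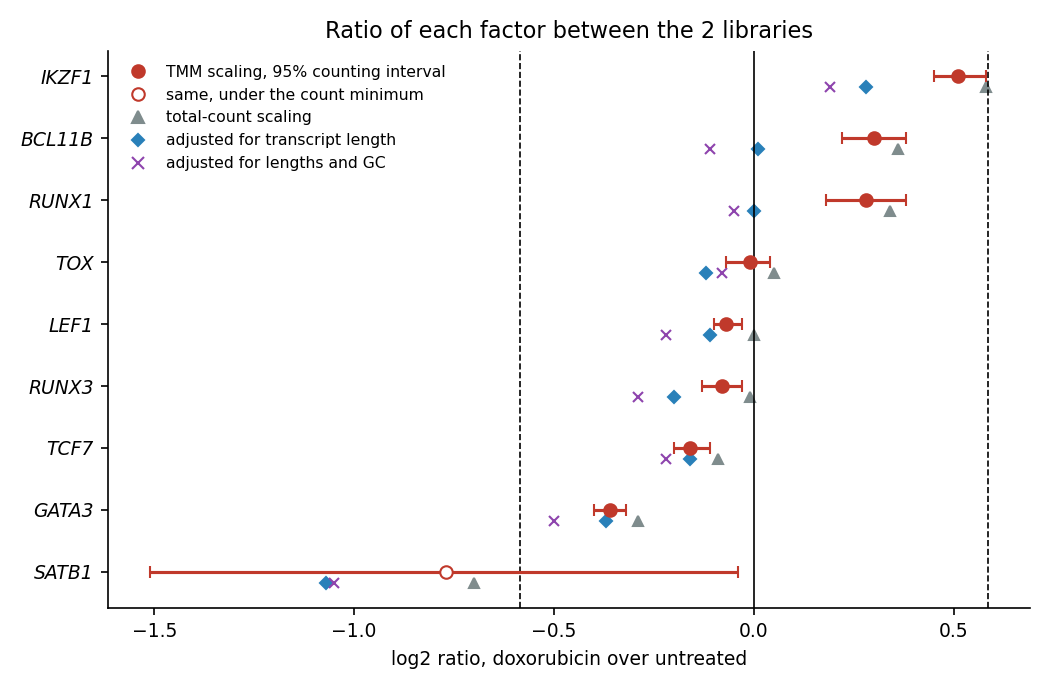
Log2 ratio of doxorubicin over untreated for 9 factors (TBX21 is left out, having 0 counts untreated), as circles with the 95% counting interval, an open circle marking SATB1 under the count minimum. Dashed lines mark 1.5-fold either way, and triangles, diamonds and crosses show total-count scaling and the 2 length adjustments, under which every measured factor stays between the dashed lines.

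Ratios across the table went with transcript length, so the factors were also set against genes of like length. The median log2 ratio was -0.39 in the 2207 genes with the shortest transcripts and 0.28 in the 2207 with the longest, when genes were cut into 5 equal groups by length. IKZF1, BCL11B and RUNX1, the 3 measured factors with ratios above 0 under TMM, have transcripts of 6302, 7603 and 7274 bases and all fall in the group with the longest. GATA3, TCF7 and LEF1 fall in the middle group, where the median was 0.03, and RUNX3 and TOX in the next longer one, where it was 0.14. After subtraction of a lowess curve on transcript length, BCL11B lay at 0.01 and RUNX1 at 0.00, and IKZF1 at 0.28. With coding length and GC content also fitted, BCL11B was at -0.11, RUNX1 at -0.05, IKZF1 at 0.19 and GATA3 at -0.50. Under either adjustment 0 of the 8 factors were called, where 4.88% of measured genes were called higher and 4.71% lower after the first, and 4.09% and 3.66% after the second.

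**Figure D3:**
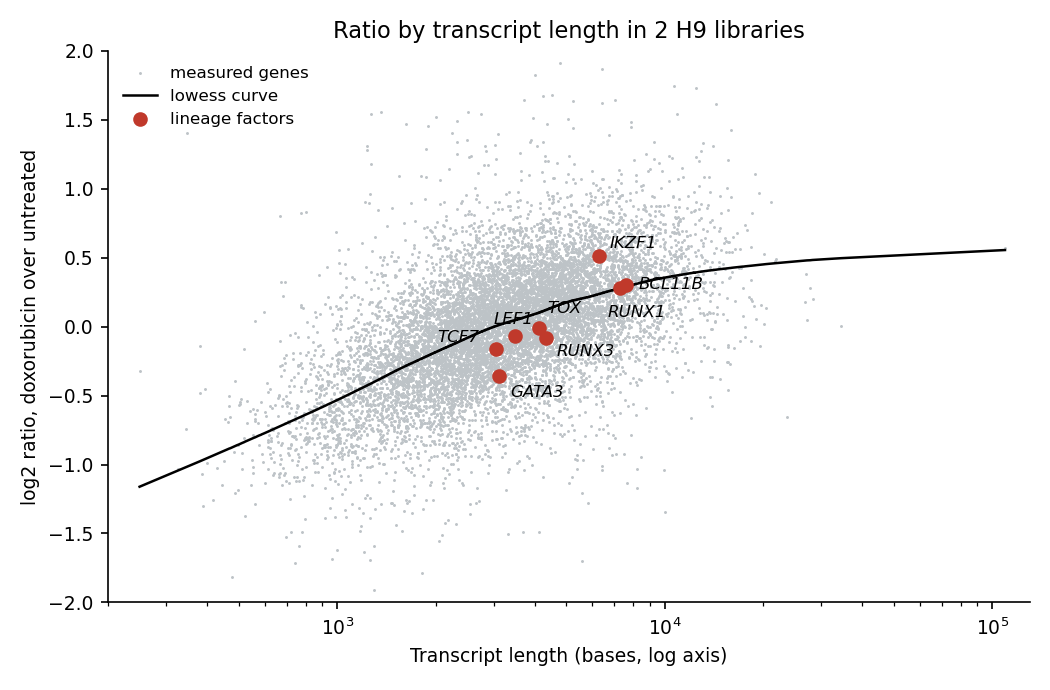
Log2 ratio of doxorubicin over untreated against transcript length in bases (log axis) for measured genes in grey, with the lowess curve in black and the 8 measured factors in red; 6 measured genes lie beyond 2 in either direction and may fall outside the axis. BCL11B and RUNX1 lie on the curve, IKZF1 lies 0.28 above it and GATA3 lies 0.37 below it.

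Ratios of counts between 2 genes within a library need no scaling, and show how the balance among the factors differed. Among the 28 pairs of measured factors, the count ratio differed between libraries with a 95% interval (on the log odds) excluding 1 in 24, and by at least 1.5-fold in 5. The same shares over pairs of all measured genes were not computed. Whether these counts are particular to the factors was thus not tested. IKZF1 to GATA3 was 0.550 in treated and 0.301 in untreated cells, a 1.83-fold difference (1.74 to 1.92), the largest of the 28. The other pairs past 1.5-fold were IKZF1 to TCF7 (1.59), BCL11B to GATA3 (1.57), RUNX1 to GATA3 (1.55) and IKZF1 to RUNX3 (1.51). BCL11B to RUNX1 was 1.58 in treated and 1.56 in untreated cells, with an interval for the difference from 0.927 to 1.11. LEF1 to RUNX3, TOX to LEF1 and TOX to RUNX3 also had intervals that held 1. LEF1 to TCF7 was 1.97 in treated and 1.85 in untreated cells, a difference of 1.07-fold (1.03 to 1.11). The trend with transcript length does not cancel in such pairs, and those of IKZF1, BCL11B and RUNX1 with GATA3 set a long transcript against a shorter one.

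Within the families, levels were compared as shares of the family's summed CPM per kilobase. The longest transcript paired with RefSeq was used, and the shares depend on that length. RUNX3 led the RUNX genes with 79.1% in treated and 83.1% in untreated cells, RUNX1 had 14.3% and 11.7%, and RUNX2, best known from bone, had 6.58% and 5.21%. By raw counts, RUNX1 took 21.5% of RUNX reads in treated cells (exact 95% interval 20.8 to 22.3) and 18.0% in untreated cells (17.1 to 18.9). RUNX1 to RUNX3 was 0.304 in treated and 0.237 in untreated cells, 1.28-fold apart (1.19 to 1.39). GATA3 made up 95.2% of its family's level in treated and 94.9% in untreated cells. LEF1 made up 60.4% and TCF7 35.00% of the TCF and LEF level in treated cells, against 58.7% and 36.2% in untreated cells. TOX made up 53.5% of its family's level in treated and 55.8% in untreated cells. With median transcript lengths TOX4 was above TOX, at 115 against 28.3 CPM per kilobase in treated and 87.9 against 28.5 in untreated cells. RUNX3 still led RUNX1 with these lengths, at 56.8 against 28.7 in treated and 60.1 against 23.7 in untreated cells.

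The Ikaros family was shared more evenly. IKZF1 had 16.9% of the family's level in treated and 15.35% in untreated cells. IKZF2, which encodes Helios, had 37.7% and 33.7%, and IKZF3, which encodes Aiolos, had 34.02% and 36.4%. Which of IKZF2 and IKZF3 led depended on the length used: with median transcript lengths IKZF3 was above IKZF2 in both libraries, and by raw counts IKZF3 took 52.01% and IKZF2 22.91% of the family's reads in treated cells, against 54.61% and 20.07% in untreated cells. By raw counts IKZF1 took 16.67% of the family's reads (16.31 to 17.05) in treated and 14.8% (14.3 to 15.3) in untreated cells. The relative of TBX21 in T cells, EOMES, had 927 counts in treated and 414 in untreated cells, where TBX21 had 4 and 0. EOMES was 1.44-fold higher (1.28 to 1.62) and not called under TMM. BCL11A, the relative of BCL11B, had 2 counts in treated and 0 in untreated cells.

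**Figure D4:**
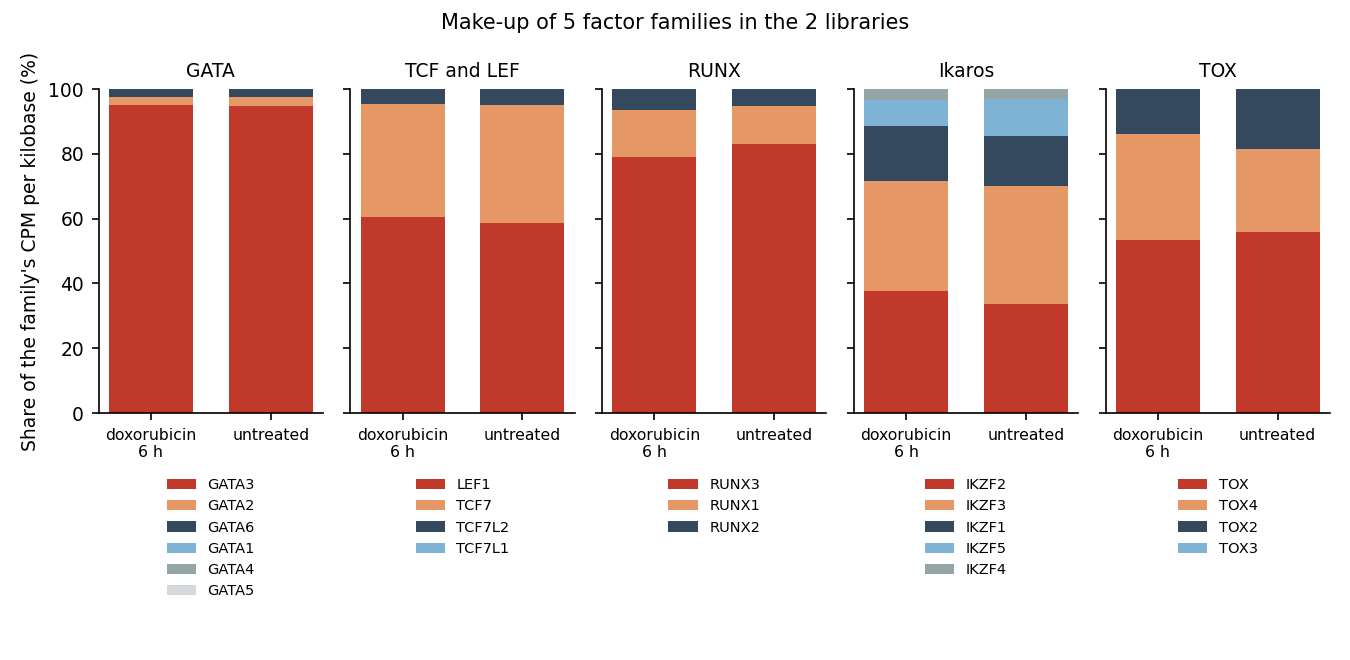
Share in percent of each family's summed CPM per kilobase held by each gene, with the doxorubicin library as the left bar and the untreated library as the right bar of each pair. RUNX3 holds 79.1% of the RUNX level in treated and 83.1% in untreated cells, and the Ikaros level is split mainly between IKZF2 and IKZF3 in both libraries. Lengths are of the longest transcript paired with RefSeq, and the shares depend on them.

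Beyond the factors themselves, 18 family relatives were looked at, of which 11 were measured and 0 called under TMM, with a median log2 ratio of 0.27. With total-count scaling 2 were called higher, IKZF2 at 0.60 and EOMES at 0.59. Over the relatives and the 5 other lists, 11.8% of the 85 measured genes were called higher and 8.24% lower, beside the 7.26% and 9.57% of all measured genes, and with total-count scaling 17.6% and 7.06%, beside 9.64% and 7.58%. Those called higher include CD8A, which passed the count minimum only through the treated library, where it was high. The counts of single lists are small and are given as a description. The relatives with the most counts were IKZF3 at 0.27 (0.24 to 0.31), IKZF2 at 0.53 (0.48 to 0.59) and TOX4 at 0.39 (0.31 to 0.47), the last sharing 11.7% of its 50-base stretches with other genes. RUNX2 was at 0.33 (0.15 to 0.50) and TCF7L2 at -0.24 (-0.34 to -0.13). After the adjustment for transcript length the median of the relatives was -0.08. Of the relatives 0 were then called higher and 1 lower, beside 4.88% and 4.71% of all measured genes. The relative called lower was GATA2 at -0.59, named here after its value was seen.

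Cofactors of the lineage factors numbered 29, with 28 measured and a median of 0.09. Of these 4 were called higher and 2 lower, where 7.26% and 9.57% of all measured genes were called. The acetyltransferase EP300 was 1.84-fold higher (1.74 to 1.94), at 102 CPM in treated and 55.8 in untreated cells, and its paralog CREBBP was 1.72-fold higher (1.62 to 1.83). BCL9L, which bridges β-catenin to its coactivators, was 1.61-fold higher (1.43 to 1.81), but 38.0% of its exons are overlapped by other protein-coding genes. CTNNB1, which encodes β-catenin and is named after its value was seen, was 1.60-fold higher (1.52 to 1.69), at 90.9 CPM in treated and 56.8 in untreated cells. ZFPM1, the GATA partner FOG1, was 2.04-fold lower (1.77 to 2.36), with 341 counts in treated and 447 in untreated cells. AES, a short Groucho-family protein that binds TCF and LEF, was 1.66-fold lower (1.63 to 1.69) and shares 25.7% of its stretches with other genes. After adjustment for transcript length 1 cofactor was called higher, CTNNB1 at 0.63, and 1 lower, ZFPM1 at -1.23. Of all measured genes 4.88% were then called higher and 4.71% lower. With coding length and GC content also fitted CTNNB1 lay at 0.52 and 0 cofactors were called higher, while ZFPM1 was still called lower at -1.01. The shares of all measured genes were then 4.09% and 3.66%. After the adjustment for transcript length alone EP300, CREBBP, BCL9L and AES were at 0.53, 0.42, 0.33 and -0.51, inside the limit.

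Of 29 other T cell lineage factors 21 were measured, with a median of 0.05. Of these 2 were called higher and 2 lower, beside 7.26% and 9.57% of all measured genes. ZBTB16, which encodes PLZF of innate-like T cells, was 2.35-fold higher (2.03 to 2.74), with 825 counts in treated and 225 in untreated cells. PRDM1, which encodes Blimp-1, was 1.67-fold higher (1.31 to 2.15). ID2 and ID3, inhibitors of E proteins, were 2.44-fold (1.99 to 3.02) and 1.57-fold (1.40 to 1.75) lower. ZBTB16 at 1.31 and ID2 at -0.91 stayed past the rule after adjustment for transcript length, and PRDM1 at 0.55 and ID3 at -0.23 did not.

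Among 25 genes described as targets of the lineage factors, 10 were measured, with a median of 0.30. Of these 3 were called higher and 1 lower, beside 7.26% and 9.57% of all measured genes. CD8A, which RUNX3 is known from mouse to help switch on in cytotoxic cells, had 81 counts in treated and 22 in untreated cells, and was 2.32-fold higher (1.46 to 3.97). CD8A passed the count minimum of 100 only through the treated library, where it was high. Its place among the measured targets therefore depends on that library. With CD8A left out, 2 targets were called higher. With a count minimum of 20, or none, 3 targets were again called higher. The share over all genes at these minimums was not computed. IL1RL1, the IL-33 receptor of type 2 cells, was 1.66-fold higher (1.41 to 1.97), with 524 and 202 counts. The perforin gene PRF1 was 1.51-fold higher (1.47 to 1.55). LAG3, an inhibitory receptor, had 70 counts in treated and 86 in untreated cells, and was 1.91-fold lower (1.38 to 2.66). The 3 higher genes and LAG3 stayed past the rule after adjustment for transcript length. That adjustment called 4.88% of all measured genes higher and 4.71% lower. PRF1 lay at 0.57 and was not called after adjustment for lengths and GC content, where 4.09% and 3.66% were called. Of the cytokine targets, IL4 had 18 counts in treated and 19 in untreated cells, IFNG 8 and 12, and IL13 had 0 in both.

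Of 15 genes linked to Sezary cells 8 were measured, with a median of 0.14. Of these 0 were called higher and 1 lower, beside 7.26% and 9.57% of all measured genes. CD70, a TNF-family ligand, was 1.74-fold lower (1.63 to 1.85), and lay at -0.22 after adjustment for transcript length. DPP4, which encodes CD26, a surface protein typically lost on Sezary cells, had 72.3 CPM in treated and 61.4 in untreated cells, a log2 ratio of 0.23 (0.16 to 0.31). CD7, also among the 15, had 8 counts in each library. SATB1, the lineage factor known to be low in Sezary cells, had 0.623 CPM in treated and 1.06 in untreated cells.

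**Figure D5:**
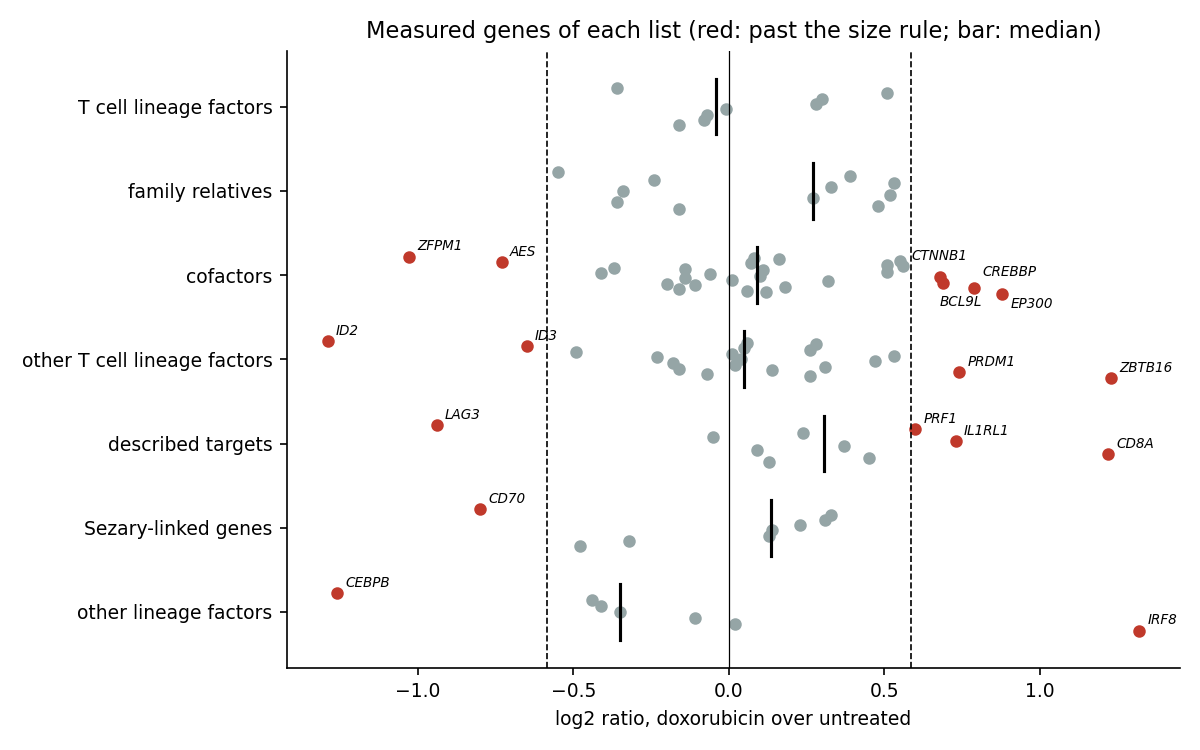
Log2 ratio of doxorubicin over untreated for the measured genes of the lineage factors and 6 related lists, with red points for genes past the size rule, black bars for medians and dashed lines at 1.5-fold. The 8 measured lineage factors and the 11 measured relatives hold 0 red points under TMM (2 relatives pass with total-count scaling), and the cofactors hold 6.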

How the data were processed

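Poly(A)-selected RNA of H9 cells was sequenced from 1 treated and 1 untreated library. The deposited values are unscaled whole-number counts of reads for each gene symbol. The submitters' processing notes name HISAT2, featureCounts and hg19. Not given in the sources used here: versions, gene annotation, strand setting and handling of multi-mapping reads. They can shift counts of overlapping genes and near-identical copies. By annotation, antisense or other genes overlap at most 5.2% of the exon bases of any factor (LEF1), and at most 7.2% of its 50-base stretches, taken every 25 bases, occur in another gene's transcripts.

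Counts were scaled with TMM in edgeR 4.0.16 (R 4.3.3). Intervals of ratios are exact Clopper-Pearson, and a count of 0 allows 3 counts. Lengths, GC content and gene positions came from GENCODE release 29 on GRCh38, not the build of the counts, and 98.1% of measured genes had a length. Length adjustment used lowess (span 0.3) or natural splines (5 degrees of freedom each for transcript and coding length and for GC content). The steps were tested on simulated counts. Whether the final 1 and 2 in the titles number replicates is not stated. The factors, lists and rules were chosen with earlier results of these data known. All 10 factors are named. From each list up to 3 highest and 3 lowest genes past the size rule, or the 3 with the most counts where none passed, and a few fixed genes are named. Alternatives were DESeq2 1.42.0 size factors, total counts, other count minimums, size limits, interval and added count.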

Additional observations from a re-analysis of the deposited data

How the results depend on the processing

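No paired analysis was possible because each condition has 1 library, and for the same reason no library could be left out. The number of lineage factors called was 0 higher and 0 lower under DESeq2 size factors, total counts, the 2-fold limit, the 99% interval, 5 added counts and both length adjustments. With a count minimum of 20, or none, 1 was called lower (SATB1), and the share over all genes at these minimums was not computed. At a size limit of 0.32 (log2) 1 was called higher and 1 lower, beside 20.4% and 21.5% of all measured genes. The median log2 ratio of the factors was -0.04, and 0.03 with total counts, -0.11 adjusted for transcript length and -0.16 adjusted for lengths and GC content. Of 82 recomputed factor ratios, 62 stayed within the counting interval and 20 moved out of it. The count minimums, size limits and 99% interval cannot change a ratio, so those values stayed by construction. All 20 that moved were under total counts or a length adjustment, and every measured factor moved when adjusted for lengths and GC content. After rounding to 2 decimals 3 had the other sign: TOX with total counts (0.05), and BCL11B (-0.11) and RUNX1 (-0.05) adjusted for lengths and GC content. LEF1 with total counts and RUNX1 adjusted for transcript length came to 0.00. Of 133 genes in the 6 related lists 85 were measured, with 10 called higher and 7 lower, beside 7.26% and 9.57% of all measured genes. These were 15 and 6 with total counts, beside 9.64% and 7.58%, and 24 and 18 at the limit of 0.32, beside 20.4% and 21.5%. At 2-fold they were 3 and 3, and the share over all measured genes was not computed. Adjusted for transcript length they were 6 and 5, beside 4.88% and 4.71%. Adjusted for lengths and GC content they were 4 and 5, beside 4.09% and 3.66%. CD8A, which passed the count minimum only through the treated library, is among the genes called higher. Total counts moved every ratio by 0.068 on the log2 scale. Depth limits SATB1 and TBX21, whose counts allow no firm ratio.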

Other observations

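Some factors of other blood lineages were detected in these T cells. Of 17 such genes 7 were measured, 10 were not, and 4 of these had 0 counts in both libraries. Of the measured, 1 was called higher and 1 lower, where 7.26% and 9.57% of all measured genes were called. IRF8, a myeloid and B cell factor, had 289 counts in treated and 74 in untreated cells, and was 2.49-fold higher (1.93 to 3.28). CEBPB, a leucine-zipper factor, was 2.39-fold lower (2.29 to 2.50), at 62.8 CPM in treated and 150 in untreated cells, and 11.8% of its exons are overlapped by another gene. Both stayed past the size rule after adjustment for transcript length, at 1.32 and -1.06. PAX5 and SPI1, which define B cells and myeloid cells, had 0 counts in both libraries.

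IRF4, an activation-induced factor named here after its value was seen, had 17 counts in treated and 0 in untreated cells, under the count minimum. The B cell gene CD79A had 129 CPM in treated and 182 in untreated cells, and the epithelial gene EPCAM 63.0 and 78.6. Per kilobase of transcript CD79A stood at 103 in treated and 145 in untreated cells, above GATA3 at 74.4 and 95.3. Of the 10 measured T cell markers 1 was called higher and 0 lower, beside 7.26% and 9.57% of all measured genes. This was CD3G, at 2.16-fold (2.01 to 2.33), while CD3E had a log2 ratio of -0.33 (-0.38 to -0.29). Adjusted for transcript length, CD3G lay at 1.16, CD3E at -0.02, CD79A at -0.08 and EPCAM at -0.07. Under that adjustment 3 T cell markers were called higher and 0 lower, beside 4.88% and 4.71% of all measured genes.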
